A study of Danio rerio with 12 samples.

Results

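Kidneys of zebrafish homozygous for a cebpd knockout were compared with kidneys of cebpd wild types, 3 libraries against 3, chosen by their labels and making up 6 of the 12 libraries of the series. All fish were adult males of the EK strain, 4 to 12 months old. Cardiomyocytes were ablated in every group, wild types included, through an incubation of 17 h with tamoxifen at 0.5 to 0.7 µM. Whole kidneys were collected 7 days later. The other 6 libraries, wild types and homozygous knockouts of CEN treated in the same way, are used here to estimate the spread and for values set side by side. The labels give no uninjured group, do not name the transgene behind the ablation, and do not say which part of cebpd was altered, what CEN is or whether a library came from 1 fish. The p-values below therefore measure the spread between these libraries.

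Cebpd is a basic leucine zipper transcription factor of the C/EBP family, whose members bind DNA as pairs and can pair with each other. In mammals its gene is known for rapid induction by inflammatory cytokines and by glucocorticoids. The adult zebrafish kidney is at once a filtering organ, the main site of blood formation and the seat of the interrenal tissue, which makes cortisol, so a whole-kidney library mixes nephron, marrow and steroid-producing cells.

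In the knockouts the cebpd transcript was reduced 41.2-fold and 9 further genes passed the test. These 9 calls were not stable. Only cebpd passed with the cebpd libraries fitted alone, and the count ran from 1 to 233 when 1 library was left out. The genes that fell included a cytosolic Hsp90 gene and an Hsp40 co-chaperone gene, an ammonia transporter gene, a mitochondrial carrier gene and genes of G-protein and protein kinase A signalling. A Ras gene and a cystatin-type gene rose. In all the genes that fell except cebpd, the cebpd wild types also stood above every CEN library. For the cystatin-type gene every CEN library stood above the cebpd wild types, and for the Ras gene the CEN libraries overlapped them. Around these calls, most Hsp70, Hsp110 and Hsp90-system genes lay lower and most neutrophil genes lay higher in the knockouts, nearly all without passing the test one by one.

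Gene counts were 15793475 to 18104535 per library, so the floor of 3 counts corresponded to 0.157 to 0.199 CPM. This unit of level scales reads to library size and not to gene length. Defining genes of the tubule (lrp2a, slc12a3), podocytes (nphs1), neutrophils (lyz, mpx), red cells (hbaa1, alas2) and interrenal tissue (star, cyp17a2) were present in all 6 libraries, and the heart muscle genes myl7, vmhc and cmlc1 were at or below 0.787 CPM. Of the other markers chosen, the neutrophil gene npsn was at or below 0.968 CPM and the red cell gene ba1 had no reads. The 3rd cebpd KO library stood apart: on the first principal component of the 6 libraries, with 41.6% of the variance, it lay at 61.5 and the others between -25.5 and 15.1. On the second component, with 25.8%, the wild types lay at 27.7, 27.3 and 13.7 and the knockouts at -35.8, -20.3 and -12.6. This 3rd knockout library had the lowest scaling factor of all 12, 0.835, and the results that moved most without it are given both ways. A list median that moved with a single library is given with the value farthest from it, or with its range, when 1 library was left out. Fewer cells of a type and less RNA per cell cannot be told apart in whole kidneys.

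The targeted transcript was the clearest difference. cebpd was at 316, 466 and 337 CPM in the wild types and at 10.4, 4.03 and 12.9 CPM in the knockouts. The groups were far apart, with 75 to 194 reads left in each knockout library. Tested with edgeR's quasi-likelihood test, as all genes below, the log2 fold change of -5.36 ± 0.38 (SE) had an adjusted p of 9.43e-05. Since the altered part of the gene is not given, these remaining reads cannot be assigned to a transcript with or without function.

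Of the 7 C/EBP genes tested cebpd alone passed. The closest to it was cebpg, a family member that lacks an activation domain of its own and acts through its partners. It was at 88.9, 99.4 and 93.5 CPM in the wild types and 71.9, 61.8 and 67.7 CPM in the knockouts. These groups did not overlap, but the log2 difference of -0.48 ± 0.11 (SE) did not pass, with an adjusted p of 0.0849. For cebpa, cebpb and cebp1, the relatives best known from myeloid cells and liver, the log2 differences were 0.00 ± 0.21, 0.10 ± 0.24 and 0.09 ± 0.24 (SE), and the sign of each turned when single libraries were left out. cebpz was at -0.27 ± 0.15 and ddit3, the stress-induced family member, at 0.14 ± 0.16 (SE), with overlapping groups in both.

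By this test 2 of 11840 genes rose (0.0169%) and 8 fell (0.0676%), in all 10 genes (0.0845%) at an adjusted p under 0.05. Log2 differences over all genes centred on -0.01, with 51.4% of genes below 0. All 10 had no overlap between the groups, which 7.79% of all genes had with the knockouts higher and 8.26% with the knockouts lower. The levels of the called genes in the CEN libraries are given beside them, because the wild types of the 2 experiments differed in 2962 genes (25%) at the same threshold. Values in cebpd KO and CEN WT are both set against the same cebpd WT libraries and are not independent comparisons.

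The chaperone genes among the calls were hsp90aa1.2 and dnaja1. hsp90aa1.2 encodes a cytosolic Hsp90, which folds signalling proteins, steroid receptors and kinases, and stood at 437, 344 and 614 CPM in the wild types and at 64.7, 104 and 107 CPM in the knockouts. Every knockout library lay far below the lowest wild type. It fell 5.06-fold, with a log2 fold change of -2.34 ± 0.32 (SE, adjusted p = 0.0181). CEN WT had 60, 117 and 98 CPM and CEN KO 115, 91 and 161 CPM, so the 3 cebpd WT libraries were the high ones of all 12. Its paralog hsp90aa1.1 is similar in sequence and was between 1.56 and 2.5 CPM in all 6 libraries. How reads were divided between these paralogs was not analysed here. dnaja1 encodes an Hsp40 protein that hands clients to Hsp70, and stood at 46.6, 42.6 and 51.3 CPM in the wild types and at 20.9, 20.4 and 14.5 CPM in the knockouts. Its groups did not overlap, and the gene fell 2.52-fold with a log2 difference of -1.33 ± 0.18 (SE, adjusted p = 0.0181). In CEN WT it was at 19.1, 24.7 and 25.3 CPM and in CEN KO at 31.6, 24.2 and 31.9 CPM, again all below cebpd WT.

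The transport genes that passed were rhbg and slc25a25b. rhbg encodes a membrane channel for ammonia of the Rhesus family, found in epithelia that excrete it. It had 63.4, 78.1 and 63.4 CPM in the wild types and 37.3, 30.3 and 27.6 CPM in the knockouts. No library crossed between the groups, and the gene fell 2.15-fold, a log2 difference of -1.11 ± 0.18 (SE, adjusted p = 0.0487). The CEN groups stood at 34.7, 38.6 and 35.2 CPM in wild types and 27.7, 27.3 and 40.4 CPM in knockouts, at or near the level of cebpd KO. slc25a25b encodes an exchanger of magnesium-bound ATP for phosphate in the inner mitochondrial membrane. Its level was 20.2, 14.1 and 14.6 CPM in the wild types and 5.99, 6.24 and 3.52 CPM in the knockouts. The groups were clear of each other and the gene fell 3.09-fold, a log2 difference of -1.63 ± 0.26 (SE, adjusted p = 0.0487). All 6 CEN libraries, at 5.54, 5.28 and 4.97 CPM in wild types and 5.82, 3.7 and 5.82 CPM in knockouts, lay in the range of the cebpd knockouts.

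2 of the calls act in signalling downstream of G-protein coupled receptors. rgs8, a protein that speeds the switching off of G proteins, was at 2.87, 12.6 and 11.4 CPM in the wild types and 0.618, 0.215 and 0.398 CPM in the knockouts, from 51, 199 and 188 reads against 10, 4 and 6. The first wild-type library was low for its group and still above every knockout. The gene fell 21.7-fold, a log2 difference of -4.44 ± 0.59 (SE, adjusted p = 0.0181). The gene was also near the floor in CEN WT, at 0.274, 0.366 and 0.622 CPM, and in CEN KO, at 0.665, 0.463 and 0.485 CPM, so the cebpd wild types alone held it above 1 CPM. akap2, which anchors protein kinase A at defined places in the cell, was at 60.7, 58.3 and 41.1 CPM in the wild types and 19.6, 15.9 and 21.2 CPM in the knockouts. The groups did not overlap, and akap2 fell 2.83-fold, a log2 difference of -1.50 ± 0.18 (SE, adjusted p = 0.0124). CEN WT stood at 16.5, 16.9 and 17.9 CPM and CEN KO higher than that, at 27.3, 23.9 and 31.2 CPM. All CEN libraries lay below every cebpd wild type.

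nabp1a, which encodes a single-stranded DNA binding protein of DNA repair, had 64.1, 74.1 and 61.3 CPM in the wild types and 38.2, 35.3 and 39.8 CPM in the knockouts. The spread within each group was small against the gap, and nabp1a fell 1.76-fold, a log2 difference of -0.82 ± 0.12 (SE, adjusted p = 0.0354). The CEN libraries held 39.1, 42.6 and 47.6 CPM in wild types and 40.3, 42.9 and 45.8 CPM in knockouts, all below every cebpd wild type.

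The genes that rose were hrasa and zgc:56530. hrasa encodes a Ras GTPase of growth factor signalling, and its levels were 21.6, 26.2 and 24.4 CPM in the wild types against 44.3, 44.1 and 44.3 CPM in the knockouts. The knockout libraries were almost equal, and hrasa rose 1.84-fold, a log2 difference of 0.88 ± 0.13 (SE, adjusted p = 0.0312). The CEN libraries lay at 28.8, 25 and 26.2 CPM in wild types and 24.5, 26.9 and 30.6 CPM in knockouts, so the 3 cebpd KO libraries were the high ones of all 12. zgc:56530 is cst14a.2 in the newer RefSeq gene table, a member of the cystatins, which inhibit cathepsins and other cysteine proteases. It stood at 19.1, 18.4 and 16.1 CPM in the wild types and 39.8, 32.6 and 38.9 CPM in the knockouts. It rose 2.08-fold without overlap, a log2 difference of 1.05 ± 0.13 (SE, adjusted p = 0.0147). CEN WT, at 32.2, 28.3 and 27.9 CPM, and CEN KO, at 35.4, 32.1 and 35.2 CPM, were both above cebpd WT.

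**Figure D1:**
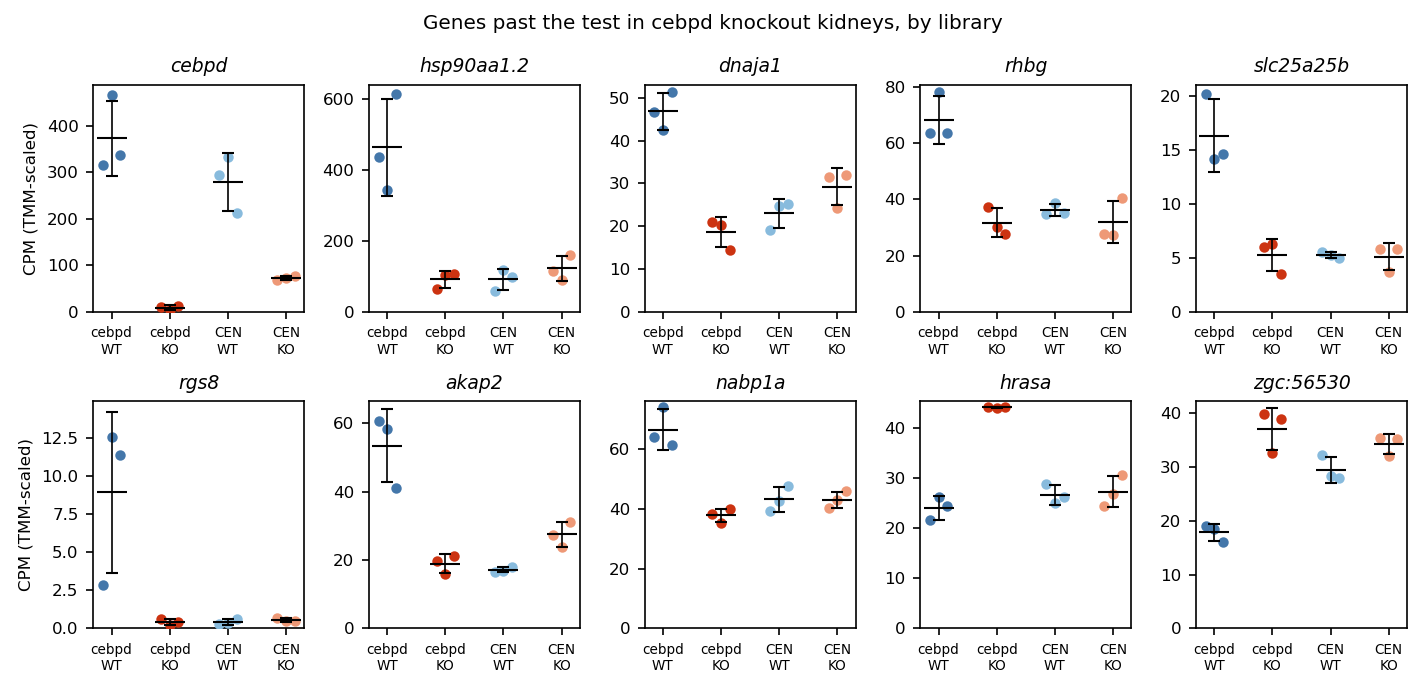
Level of the 10 genes past the test in each library (points, in TMM-scaled CPM on linear axes from 0), with group means and SD (dash and bars, n = 3), for cebpd WT, cebpd KO, CEN WT and CEN KO. For hsp90aa1.2, rgs8, slc25a25b, dnaja1, rhbg, akap2 and nabp1a the 3 cebpd WT libraries stand above all the others. For hrasa the 3 cebpd KO libraries stand above all the others.

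How many genes passed depended on single libraries. The count of 10 became 233 without the 3rd cebpd KO library, with all 10 genes kept, and 34 without the 3rd cebpd WT library. It was 1 and 2 without the 1st and 2nd knockouts, 2 and 3 without the 1st and 2nd cebpd wild types, and 6, 5 and 6 without the 1st, 2nd and 3rd CEN wild types. With the 6 cebpd libraries fitted alone only cebpd passed. The cebpd call held in every alternative. Over the 12 fits that each left out 1 library, hsp90aa1.2, rgs8 and zgc:56530 each lost their call in 3, akap2 in 4, dnaja1 in 5, hrasa in 8, rhbg and slc25a25b in 9 and nabp1a in 10.

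A further 123 genes had an adjusted p from 0.05 to 0.1, 57 higher and 66 lower in the knockouts, which brings the genes under 0.1 to 133 (1.12%). They did not pass, and the named ones of largest difference are given as levels. Among the 14 named genes of largest decrease were 4 of the chaperone system. The Hsp70 gene hsp70.1 was at 73.2, 101 and 61.3 CPM in the wild types and 15, 15.1 and 21.8 CPM in the knockouts. Its relative hsp70l stood at 44, 34.9 and 28.7 CPM against 8.59, 16.8 and 13.1 CPM, and reads may be shared between these similar genes. The Hsp110 gene hspa4a, whose product recharges Hsp70 with ATP, stood at 318, 232 and 342 CPM against 116, 110 and 152 CPM. The groups did not overlap in these genes, with log2 differences of -2.18 ± 0.40, -1.48 ± 0.33 and -1.24 ± 0.22 (SE) and adjusted p of 0.0535, 0.0877 and 0.0535. In CEN WT hsp70.1 was at 9.44, 22.3 and 14 CPM, hsp70l at 8.78, 9.93 and 10.5 CPM and hspa4a at 76, 139 and 112 CPM, all below every cebpd wild type. The Hsp90 co-chaperone gene chordc1a was at 7.14, 5.77 and 7 CPM against 3.15, 2.96 and 1.59 CPM, a log2 difference of -1.36 ± 0.32 (SE, adjusted p = 0.0961). In CEN WT chordc1a was at 3.51, 3.97 and 3.9 CPM, also below every cebpd wild type.

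Transport and lipid genes were also in this lower group. slc13a2, for the sodium-coupled carrier that takes up citrate and other dicarboxylates, was at 32.1, 53.1 and 32.4 CPM in the wild types and 11.1, 9.84 and 12.8 CPM in the knockouts. slc1a4, for an exchanger of small neutral amino acids, was at 6.63, 6.72 and 16.8 CPM against 2.53, 2.31 and 2.72 CPM. Both were clear of overlap, with log2 differences of -1.80 ± 0.33 (SE, adjusted p = 0.0557) and -1.99 ± 0.45 (SE, adjusted p = 0.0916). CEN WT was at 7.63, 7.63 and 14.8 CPM for slc13a2 and 2.36, 4.03 and 1.53 CPM for slc1a4. These levels were below every cebpd wild type. lpin1, for a phosphatidate phosphatase of lipid synthesis, stood at 143, 192 and 70.5 CPM against 51.2, 26.9 and 36.9 CPM, a log2 difference of -1.82 ± 0.33 (SE, adjusted p = 0.0535). The deubiquitinase gene usp2a stood at 218, 253 and 112 CPM against 63, 43.1 and 70.9 CPM, a log2 difference of -1.72 ± 0.31 (SE, adjusted p = 0.0535). In lpin1 and usp2a the 3rd wild type was the lowest of its group and yet above every knockout. CEN WT, at 33, 21.1 and 22.9 CPM for lpin1 and 52.1, 52.9 and 60 CPM for usp2a, also lay below every cebpd wild type. The remaining named genes of this group were the crystallin gene cryba1a (-2.30), ek1 (-1.85), ccdc85a (-1.85), the radial spoke gene ropn1l of motile cilia (-1.84), camk2n1a (-1.31), for an inhibitor of calmodulin kinase II, and the purine nucleoside phosphorylase gene pnp5b (-1.21), values being log2 differences. In CEN WT ek1, camk2n1a and pnp5b lay below every cebpd wild type, and cryba1a, ccdc85a and ropn1l overlapped them. In cebpd KO cryba1a rested on 9, 10 and 5 reads, ccdc85a on 6, 10 and 6 and ek1 on 18, 19 and 21.

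On the higher side, nfil3-2, a basic leucine zipper repressor tied to the clock and to immune cells, was at 8.26, 8.11 and 6.88 CPM in the wild types and 30.5, 29.2 and 9.55 CPM in the knockouts. The 3rd knockout library was close to the wild types, and the log2 difference of 1.57 ± 0.35 (SE, adjusted p = 0.0916) became 1.97 with an adjusted p of 0.00361 without it. tcf21, a transcription factor of podocytes and stroma, was at 2.81, 3.17 and 3.04 CPM against 6.8, 5.65 and 8.89 CPM, a log2 difference of 1.24 ± 0.22 (SE, adjusted p = 0.0535). cyp26b1, whose product breaks down retinoic acid, stood at 7.98, 11.5 and 7.55 CPM against 26, 24.2 and 14.7 CPM, a log2 difference of 1.27 ± 0.24 (SE, adjusted p = 0.063). smad6, an inhibitor of BMP signalling, stood at 8.99, 10.7 and 10.5 CPM against 16.9, 22.7 and 22.4 CPM, a log2 difference of 1.04 ± 0.17 (SE, adjusted p = 0.0533). In tcf21, cyp26b1 and smad6 each knockout library was above every wild type. So was each CEN WT library, at 7.68, 5.59 and 5.71 CPM for tcf21, 15.9, 13.4 and 12.9 CPM for cyp26b1 and 16.8, 23.6 and 22.3 CPM for smad6. Also in this group, with log2 differences in brackets, were ubash3bb (1.42), the mitochondrial folate carrier gene slc25a32a (1.28), snx10b (1.17) and the carboxypeptidase gene cpa5 (1.14). Further members were mtus1a (0.98), the peptide transporter gene slc15a2 (0.96), heca (0.96), the S100-type gene icn (0.96) and crot (0.95), an enzyme of peroxisomal fatty acid export. mdm1 was at 5.51, 5.58 and 4.69 CPM against 9.39, 12.6 and 9.62 CPM, and at 16.1, 13.9 and 13.6 CPM in CEN WT. In CEN WT snx10b overlapped the cebpd wild types, and every other gene of this higher group lay above all of them. On average CEN WT lay farther from cebpd WT than the knockouts did in slc25a32a, mdm1, mtus1a, slc15a2, heca and crot. It lay nearer in nfil3-2, ubash3bb, cyp26b1, tcf21, snx10b, cpa5 and icn, and about as far in smad6.

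**Figure D2:**
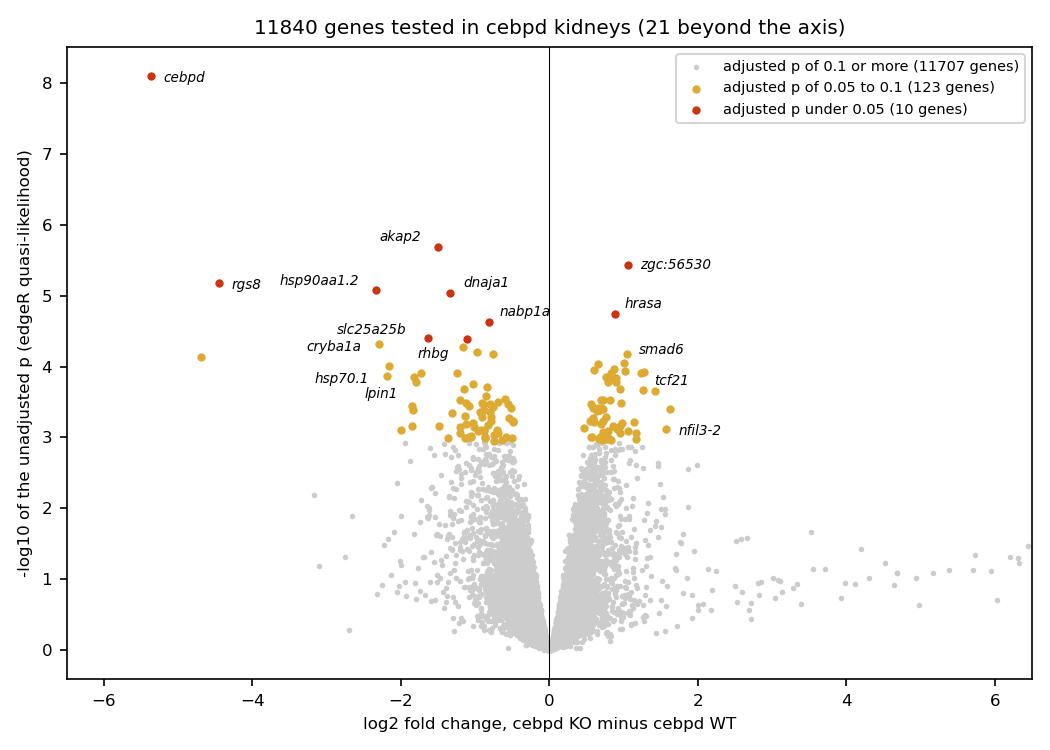
Log2 fold change in cebpd KO against cebpd WT (horizontal axis) and the negative log10 of the unadjusted p of edgeR's quasi-likelihood test (vertical axis) for 11840 genes, with 10 genes under an adjusted p of 0.05 in red, 123 from 0.05 to 0.1 in yellow, and 21 genes beyond the horizontal axis. cebpd and rgs8 stand far to the left, and the genes past the test on the right stay within a log2 fold change of 1.05.

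The chaperone calls were set in their families. Gene lists here are described by counts and medians, since they were chosen with earlier results of these data known, and none is tested. At an unadjusted p under 0.05, 6.58% of all genes were higher and 6.8% lower. Of 24 tested Hsp70, Hsp110 and exchange factor genes none passed, 21 lay below 0, 11 were lower and 1 higher at an unadjusted p under 0.05, and the median log2 difference was -0.43. The summed level of this list was 6440, 6760 and 6920 CPM in the wild types and 5180, 5240 and 5890 CPM in the knockouts, with no overlap. Of 19 Hsp90-system genes 1 fell, hsp90aa1.2, 15 lay below 0, 7 were lower and 0 higher at an unadjusted p under 0.05, and the median was -0.29. Leaving out the 2nd cebpd KO library moved this median to -0.19. Of 38 DnaJ genes 1 fell, dnaja1, 30 lay below 0 and the median was -0.23, or -0.16 without the 3rd wild type. Without the 3rd knockout the medians of the 3 lists were -0.51, -0.33 and -0.26. The summed level of the Hsp90-system list overlapped between the cebpd groups, at 9690, 10100 and 8990 CPM against 8360, 8800 and 9280 CPM. In the CEN wild types the sums of the 3 lists were below every cebpd wild type, 3820 to 4300 CPM for the Hsp70 list and 7220 to 8330 CPM for the Hsp90-system list.

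Not every folding gene followed. Of 9 genes of the CCT and mitochondrial chaperonins 5 lay below 0, with a median of -0.05 that became -0.14 without the 3rd knockout and 0.04 without the 1st knockout or the 3rd wild type. Of these, hspd1, for mitochondrial Hsp60, was at 306, 315 and 407 CPM against 209, 180 and 309 CPM, with overlap. The 45 proteasome subunit genes had a median of 0.05 with 15 below 0, which was 0.26 without the 3rd wild type and -0.07 without the 3rd knockout. The 8 small heat shock genes had a median of -0.48, or -0.21 without the 2nd wild type, and hspb6 ran from 133 to 308 CPM in the wild types and from 74.1 to 140 CPM in the knockouts. Of 9 heat shock factors and stress regulators 5 lay above 0 and 4 below, with a median of 0.17 that became -0.02 without the 3rd knockout. Those of lowest p were both lower. Of these, hsf2 was at 50.6, 64.8 and 61.9 CPM against 47.1, 48.6 and 47.6 CPM, without overlap and at -0.31 ± 0.15 (SE, adjusted p = 0.395). serpinh1b, the collagen chaperone, was at 4.83, 5.51 and 3.23 CPM against 1.54, 1.29 and 2.59 CPM, at -1.33 ± 0.38 (SE, adjusted p = 0.148).

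**Figure D3:**
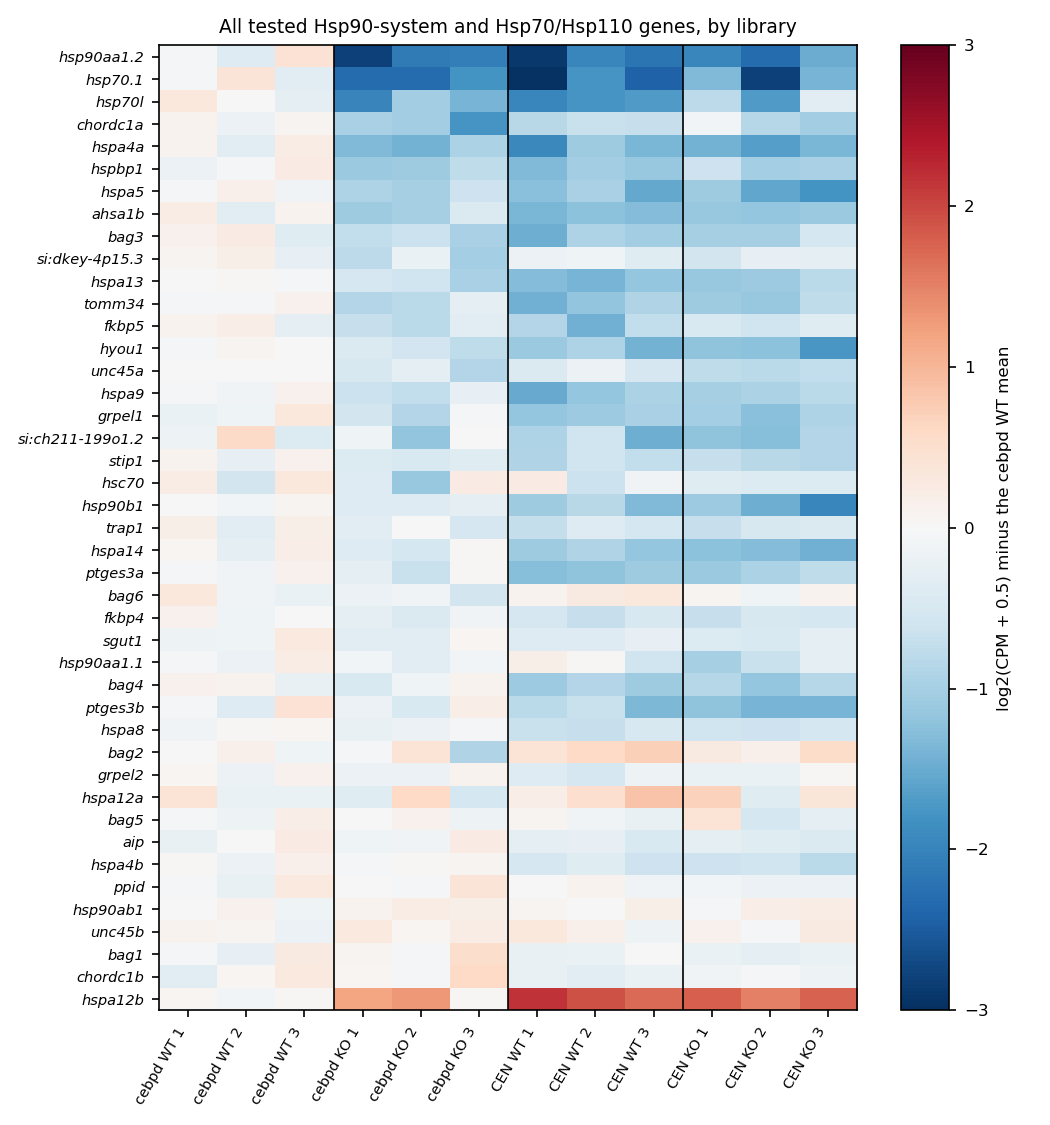
Heat map of all 43 tested genes of the Hsp90 system and the Hsp70 and Hsp110 families (rows, ordered by log2 fold change) in the 12 libraries (columns), coloured by log2(CPM + 0.5) minus the mean of the cebpd WT libraries. The rows at the top, from hsp90aa1.2 to hspa4a, are blue in the cebpd knockouts and in all or nearly all CEN libraries, and the lower rows are paler in the cebpd knockouts, except hspa12b in the last row, which is red in 2 of the 3 knockouts and in all CEN libraries.

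Genes of 2 neighbouring stress pathways lay lower. The endoplasmic reticulum list shares members with the chaperone lists above, among them hspa5 and dnajb9b, so these lists are not separate counts. Of 27 endoplasmic reticulum stress genes none passed, 20 lay below 0, 6 were lower and 0 higher at an unadjusted p under 0.05, with a median of -0.29, or -0.16 without the 2nd wild type and -0.19 without the 3rd. hspa5, for the Hsp70 of the endoplasmic reticulum, was at 585, 676 and 558 CPM in the wild types and 316, 302 and 391 CPM in the knockouts. It lay apart in both groups at -0.85 ± 0.21 (SE) with an adjusted p of 0.103. Of 23 genes of the amino acid response, which the factor Atf4 drives, none passed, 21 lay below 0 and 8 were lower at an unadjusted p under 0.05. Their median was -0.39, or -0.24 without the 3rd wild type. The pseudokinase gene trib3 was at 64.5, 84.9 and 65.7 CPM against 41.3, 41.2 and 44 CPM, with -0.76 ± 0.13 (SE, adjusted p = 0.0533). chac1, for an enzyme that degrades glutathione, was at 402, 676 and 457 CPM against 202, 167 and 301 CPM, with -1.20 ± 0.26 (SE, adjusted p = 0.0877). Summed levels of the endoplasmic reticulum list were 4860, 5650 and 5050 CPM in the cebpd wild types, 4470, 4460 and 4730 CPM in the knockouts and 3210, 3540 and 3160 CPM in CEN WT. For both lists the median log2 difference of CEN WT from cebpd WT, -0.61, was larger than that of the knockouts from the same wild types.

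Neutrophil genes lay higher in the knockouts without passing one by one. Of 16 tested granule and secreted genes 15 lay above 0, 12 were higher and 0 lower at an unadjusted p under 0.05, and 11 had no overlap between the groups. Their median log2 difference was 0.56, and 0.50 without the 3rd knockout. It ranged from 0.47 without the 1st wild type to 0.69 without the 1st knockout. The summed level was 4270, 5580 and 5170 CPM in the wild types and 7390, 8300 and 9100 CPM in the knockouts, and 7580, 5020 and 5280 CPM in CEN WT. The 1st CEN wild type thus lay within the range of the cebpd knockouts, and the other 2 at the level of the cebpd wild types. lyz, for lysozyme, was at 963, 1490 and 1550 CPM against 2270, 2540 and 2830 CPM, at 0.93 ± 0.27 (SE, adjusted p = 0.161). The carboxypeptidase gene cpa5, counted in this list, was at 390, 736 and 498 CPM against 927, 1260 and 1380 CPM, at 1.14 ± 0.25 (SE, adjusted p = 0.0849). lect2l, for a secreted leukocyte chemotaxin, was at 221, 329 and 330 CPM against 565, 552 and 716 CPM, at 1.06 ± 0.26 (SE, adjusted p = 0.103). These 3 genes had no overlap. lta4h, for the enzyme that makes leukotriene B4, was at 0.57 ± 0.15 (SE, adjusted p = 0.12).

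Genes of the oxidative burst and of cell movement also lay higher. Of 9 genes of the phagocyte oxidase and its regulators 7 lay above 0. At an unadjusted p under 0.05, 5 were higher and 1, rac1a, was lower. Their median was 0.44, or 0.43 without the 3rd knockout and 0.33 without the 2nd knockout or the 1st wild type. cybb, the membrane subunit that carries the electrons, was at 233, 335 and 279 CPM against 381, 495 and 447 CPM. The cytosolic subunit gene ncf1 was at 227, 329 and 284 CPM against 377, 416 and 488 CPM. Neither gene overlapped between groups, at 0.64 ± 0.15 (SE, adjusted p = 0.1) and 0.61 ± 0.17 (SE, adjusted p = 0.136), and rac2 and ncf4 were at 0.60 ± 0.18 and 0.44 ± 0.14 (SE). In CEN WT cybb was at 472, 423 and 431 CPM, above every cebpd wild type. ncf1 was at 308, 221 and 278 CPM there and overlapped the cebpd wild types. Of 12 receptor, adhesion and motility genes 11 lay above 0 and 6 were higher at an unadjusted p under 0.05. Their median was 0.46, or 0.40 without the 3rd knockout, 0.32 without the 1st wild type and 0.61 without the 1st knockout. Among them the sphingosine phosphate receptor gene s1pr4 was at 93.1, 116 and 110 CPM against 154, 170 and 193 CPM, at 0.70 ± 0.15 (SE, adjusted p = 0.0873). The actin bundler gene lcp1 was at 472, 554 and 538 CPM against 634, 1000 and 880 CPM, at 0.69 ± 0.18 (SE, adjusted p = 0.126), and its knockout libraries were all above its wild types. The median log2 difference of CEN WT from cebpd WT was 0.16 for the oxidase list and 0.28 for the receptor list. Both were smaller than those of the knockouts.

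In the other blood cell lists no member passed either. Of 31 macrophage and monocyte genes 30 lay above 0, 8 were higher and 1 lower at an unadjusted p under 0.05, with a median of 0.43, or 0.34 without the 3rd knockout and 0.26 without the 1st wild type. The 1 below 0 was slc7a7, an amino acid exchanger that tubule cells also use, at 343, 431 and 312 CPM against 201, 218 and 277 CPM, with -0.64 ± 0.17 (SE, adjusted p = 0.126). The summed level of the macrophage list overlapped, at 4150, 5930 and 4900 CPM against 5510, 5290 and 7370 CPM. Of 12 B cell genes 11 lay above 0 with a median of 0.51, or 0.40 without the 2nd knockout and 0.72 without the 2nd wild type. swap70b, for an activator of B cell migration, was at 31.6, 40 and 37.6 CPM against 54.5, 65 and 68.7 CPM, at 0.79 ± 0.15 (SE, adjusted p = 0.0557). In CEN WT it was at 61.1, 54 and 60.5 CPM, above every cebpd wild type. T and NK cell genes had a median of 0.25 with 15 of 20 above 0, or 0.41 without the 2nd wild type and 0.37 without the 3rd knockout. The median log2 difference of CEN WT from cebpd WT was larger, at 0.82 for the B cell list and 0.83 for the T and NK cell list. Thrombocyte genes had a median of 0.17 with 13 of 18 above 0, or 0.30 without the 1st wild type and 0.28 without the 3rd knockout. Blood stem and progenitor genes had a median of 0.17 with 17 of 25 above 0, or 0.06 without the 1st or the 2nd knockout and 0.35 without the 3rd. Red cell genes had a median of -0.19 with 22 of 28 below 0, but it was -0.53 without the 2nd wild type and 0.29 without the 3rd. Their summed level ran from 14300 to 54800 CPM among the wild types alone, with 25300 to 38100 CPM in the knockouts inside that range. Cell cycle genes had a median of 0.02 over 65 genes, which was -0.23 without the 2nd wild type and 0.28 without the 3rd. Of 19 cathepsin and cystatin genes 18 lay above 0 and 1, zgc:56530, rose, with a median of 0.30 that became 0.15 without the 3rd knockout.

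Genes of the nephron lay on both sides. Of 45 proximal tubule genes none passed, 33 lay below 0, 10 were lower and 2 higher at an unadjusted p under 0.05, with a median of -0.15, or -0.07 without the 2nd wild type and -0.25 without the 3rd. ggt1a, for a brush border enzyme that splits glutathione, was at 660, 721 and 594 CPM against 392, 315 and 269 CPM, and at 73.3, 75.5 and 44.4 CPM in CEN WT. slc15a2, which recovers small peptides from the filtrate, was at 16.9, 15.8 and 17.3 CPM against 30, 40.5 and 26.9 CPM, and at 145, 127 and 160 CPM in CEN WT. Both had no overlap within the cebpd experiment, at -1.02 ± 0.23 (SE, adjusted p = 0.0877) and 0.96 ± 0.19 (SE, adjusted p = 0.0729). In both genes the CEN wild types lay farther from the cebpd wild types than the cebpd knockouts did. The distal tubule list had a median of -0.13 with 19 of 27 below 0, or -0.05 without the 2nd wild type and -0.23 without the 2nd knockout. The list of ammonia transport and acid handling had 0.03 with 14 of 35 below 0, and ranged from -0.02 to 0.11 when 1 library was left out. rhbg, counted in both lists, was the called member of each.

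Ion pumps and hormone receptors of the nephron held no called member. Of 30 genes of pumps, water channels and their regulators 21 lay below 0, with a median of -0.18, or -0.11 without the 2nd wild type and -0.27 without the 3rd. atp1b1a, the beta subunit of the sodium pump, was at 3650, 4830 and 3790 CPM against 2860, 2980 and 3060 CPM, without overlap and at -0.46 ± 0.16 (SE, adjusted p = 0.21). atp1a3b, an alpha subunit, was at 17.9, 17.8 and 9.38 CPM against 7.48, 5.54 and 6.04 CPM, at -1.24 ± 0.33 (SE, adjusted p = 0.125). CEN WT was at 2260, 2490 and 2390 CPM for atp1b1a and at 2.96, 3.4 and 3.11 CPM for atp1a3b. In both genes it lay farther from the cebpd wild types than the cebpd knockouts did. Of 10 renin-angiotensin and natriuretic peptide genes 6 lay below 0, with a median of -0.10, or -0.24 without the 2nd knockout and -0.05 without the 2nd wild type. npr3, the receptor that clears natriuretic peptides, was at 38, 55.2 and 37.7 CPM against 19.7, 26.3 and 25.3 CPM, clear of overlap and at -0.87 ± 0.20 (SE, adjusted p = 0.0916). CEN WT, at 26.6, 23.7 and 32.7 CPM for npr3, was also below every cebpd wild type. The angiotensin receptor gene agtr2 was at -0.93 ± 0.26 (SE, adjusted p = 0.138).

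Steroid genes lay lower. Of 20 interrenal and chromaffin genes none passed, 16 lay below 0, and 6 were lower and 0 higher at an unadjusted p under 0.05. Their median was -0.49, and -0.54 without the 3rd knockout. It ranged from -0.68 without the 3rd wild type to -0.29 without the 2nd wild type. For this list the median log2 difference of CEN WT from cebpd WT, -0.76, was larger than that of the knockouts. mc2r, for the receptor of adrenocorticotropin, was at 4.5, 5.51 and 3.71 CPM against 1.61, 1.61 and 2.39 CPM. cyp17a2, for a steroid hydroxylase of cortisol synthesis, was at 76.3, 87.4 and 45 CPM against 37.3, 28.1 and 22.3 CPM. nr5a1a, which drives steroid enzyme genes, was at 8.26, 10.9 and 4.45 CPM against 4.33, 3.71 and 2.79 CPM. The groups of all 3 genes did not overlap, at -1.29 ± 0.31, -1.25 ± 0.34 and -1.12 ± 0.29 (SE) and adjusted p of 0.103, 0.13 and 0.121. hsd3b7, also in this list, was at 284, 144 and 127 CPM against 80.1, 82.5 and 110 CPM, at -1.03 ± 0.26 (SE, adjusted p = 0.118). Its 1st wild type stood far above the others of its group. star overlapped between the groups, at -0.54 ± 0.38 (SE, adjusted p = 0.602). The summed level of the interrenal list was 4170, 4310 and 3110 CPM against 2750, 2090 and 2840 CPM. That of the corticosteroid receptors and targets was 14900, 17100 and 12300 CPM against 10400, 8260 and 11600 CPM. These sums placed the cebpd libraries in the same order, but not the CEN libraries. In CEN WT they were 1260, 1470 and 2570 CPM and 8890, 7870 and 8690 CPM, below every cebpd wild type. Of the 30 tested corticosteroid receptors and targets 22 lay below 0, and the 1 that fell was cebpd itself. Their median was -0.23 (-0.13 without the 3rd knockout and -0.39 without the 3rd wild type). How far the amount of interrenal tissue in each kidney enters these values was not tested.

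Ciliated, glomerular and vessel lists held no called member. Of 57 multiciliated cell genes 43 lay below 0, 6 were lower and 0 higher at an unadjusted p under 0.05, and 13 were lower without overlap. Their median was -0.21, or -0.28 without the 3rd wild type and -0.16 without the 1st knockout. foxj1b, a master regulator of motile cilia, was at 83.3, 54.7 and 55.7 CPM against 34.2, 33.4 and 39 CPM, without overlap and at -0.86 ± 0.20 (SE, adjusted p = 0.0961). Of 19 podocyte genes 11 lay below 0 with a median of -0.05, ranging from -0.15 to 0.06 when 1 library was left out. Endothelial genes had a median of 0.07 with 19 of 31 above 0, ranging from -0.07 to 0.14. Among them apln, for the peptide ligand apelin, was at 489, 463 and 472 CPM against 258, 326 and 245 CPM, a tight and separate pair of groups at -0.78 ± 0.17 (SE, adjusted p = 0.0849).

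Metabolic lists centred near 0, and ranges here are over the fits that left out 1 library. The 46 mitochondrial SLC25 carriers, the family of slc25a25b, had a median of -0.12 (-0.16 to -0.07) with 30 below 0, and 7 lower and 3 higher at an unadjusted p under 0.05. Fatty acid oxidation genes had a median of -0.01 (-0.13 to 0.07) over 49 genes, within which ucp3, for a mitochondrial uncoupling protein, was at 207, 259 and 220 CPM against 110, 73.9 and 131 CPM, at -1.12 ± 0.23 (SE, adjusted p = 0.0729). In CEN WT ucp3 was at 116, 101 and 73 CPM, also below every cebpd wild type. The enzymes of glycolysis and the citrate cycle had a median of 0.04 (-0.07 to 0.12) over 62 genes. Their genes of lowest p were eno1a, for enolase, at 307, 321 and 339 CPM against 405, 581 and 618 CPM, and ldha, for lactate dehydrogenase, at 171, 195 and 174 CPM against 226, 241 and 272 CPM. Both had all knockouts above all wild types, at 0.73 ± 0.16 (SE, adjusted p = 0.0916) and 0.45 ± 0.11 (SE, adjusted p = 0.113). CEN WT, at 264, 225 and 276 CPM for eno1a and 96, 91 and 96.8 CPM for ldha, lay below every cebpd wild type. Oxidative phosphorylation (0.06 over 79 genes) and ribosomal proteins (0.28 over 80 genes, 77 above 0) rested on the 3rd knockout, since their medians were -0.15 and -0.01 without it. Cholesterol genes had a median of -0.06 over 35, and 0.08 without the 3rd wild type. Of 63 xenobiotic genes 11 were lower and 1 higher at an unadjusted p under 0.05. They had a median of -0.11, and -0.24 without the 3rd knockout or -0.04 without the 2nd wild type. Iron and heme genes had -0.07 over 28, and -0.17 without the 3rd knockout or -0.02 without the 3rd wild type. Apart from slc25a25b among the SLC25 carriers, none of these lists held a called member.

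Among inflammatory and signalling lists no member passed apart from those already described. The interleukin-6 and JAK-STAT genes, the pathway that induces C/EBP delta in mammals, had a median of -0.01 over 38 genes, which was 0.22 without the 3rd knockout and -0.21 without the 1st. il6r, for the interleukin-6 receptor, was at 59.3, 64.6 and 58.8 CPM against 78.9, 84.1 and 84.5 CPM, a small difference with no overlap, at 0.44 ± 0.12 (SE, adjusted p = 0.13). Of 50 acute phase, complement and plasma protein genes 36 lay above 0 with a median of 0.43, or 0.25 without the 1st knockout. cp, for the copper carrier ceruloplasmin, was at 35.1, 51.2 and 38.7 CPM against 97.1, 84.6 and 85 CPM, without overlap and at 1.09 ± 0.28 (SE, adjusted p = 0.118). CEN WT, at 152, 160 and 87.7 CPM, was also above every cebpd wild type. Among the cytokine and NF-kB genes (median 0.16 over 37, 0.03 without the 2nd knockout) the chemokine gene ccl25b was at 106, 133 and 133 CPM against 60.5, 67.5 and 86.4 CPM, at -0.80 ± 0.16 (SE, adjusted p = 0.0729), and rel was at 0.59 ± 0.14 (SE, adjusted p = 0.103). In CEN WT ccl25b was at 76.5, 70.6 and 66.6 CPM, below every cebpd wild type. rel was at 119, 93.9 and 113 CPM there, above every cebpd wild type. Interferon genes had a median of 0.06 over 31 genes (-0.03 to 0.13 when 1 library was left out) and immediate early genes -0.07 over 50 (-0.18 to 0.02). Clock genes lay on both sides, with 9 of 42 higher and 6 lower at an unadjusted p under 0.05 and a median of 0.00, which was 0.28 without the 3rd knockout and -0.13 without the 2nd. The families of the called signalling genes also centred near 0, the RGS, AKAP and cyclic AMP genes at 0.05 over 36 (-0.03 to 0.12 when 1 library was left out) and the Ras genes at -0.02 over 32 (-0.06 to 0.02). The p53 and DNA repair genes, the list of nabp1a, lay at -0.01 over 41 (-0.09 to 0.11).

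Transcripts typical of tissue outside the kidney were unevenly present. Skeletal muscle genes had a summed level of 232, 412 and 91.5 CPM in the wild types and 153, 84.9 and 97.4 CPM in the knockouts. Their median of -1.22 over 27 genes became -0.36 without the 2nd wild type, and ckmb, for muscle creatine kinase, was at 24.5, 28.8 and 2.5 CPM against 5.93, 2.2 and 3.85 CPM. Of 21 egg coat and other estrogen-responsive genes 16 lay above 0. Their median was 1.13 without the 3rd knockout and 0.44 without the 1st, the library in which zp2l1 was at 7.79 CPM against 0.161 and 0.0663 CPM in the other knockouts. Pancreas, gut and liver genes had a median of -0.09 over 21, or -0.31 without the 3rd knockout and 0.21 without the 2nd wild type, and smooth and heart muscle genes 0.02 over 12, or 0.12 without the 2nd wild type. None of these genes passed. Whether kidney cells or other tissue supplied these transcripts was not tested, nor was the part of such tissue in the other results.

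**Figure D4:**
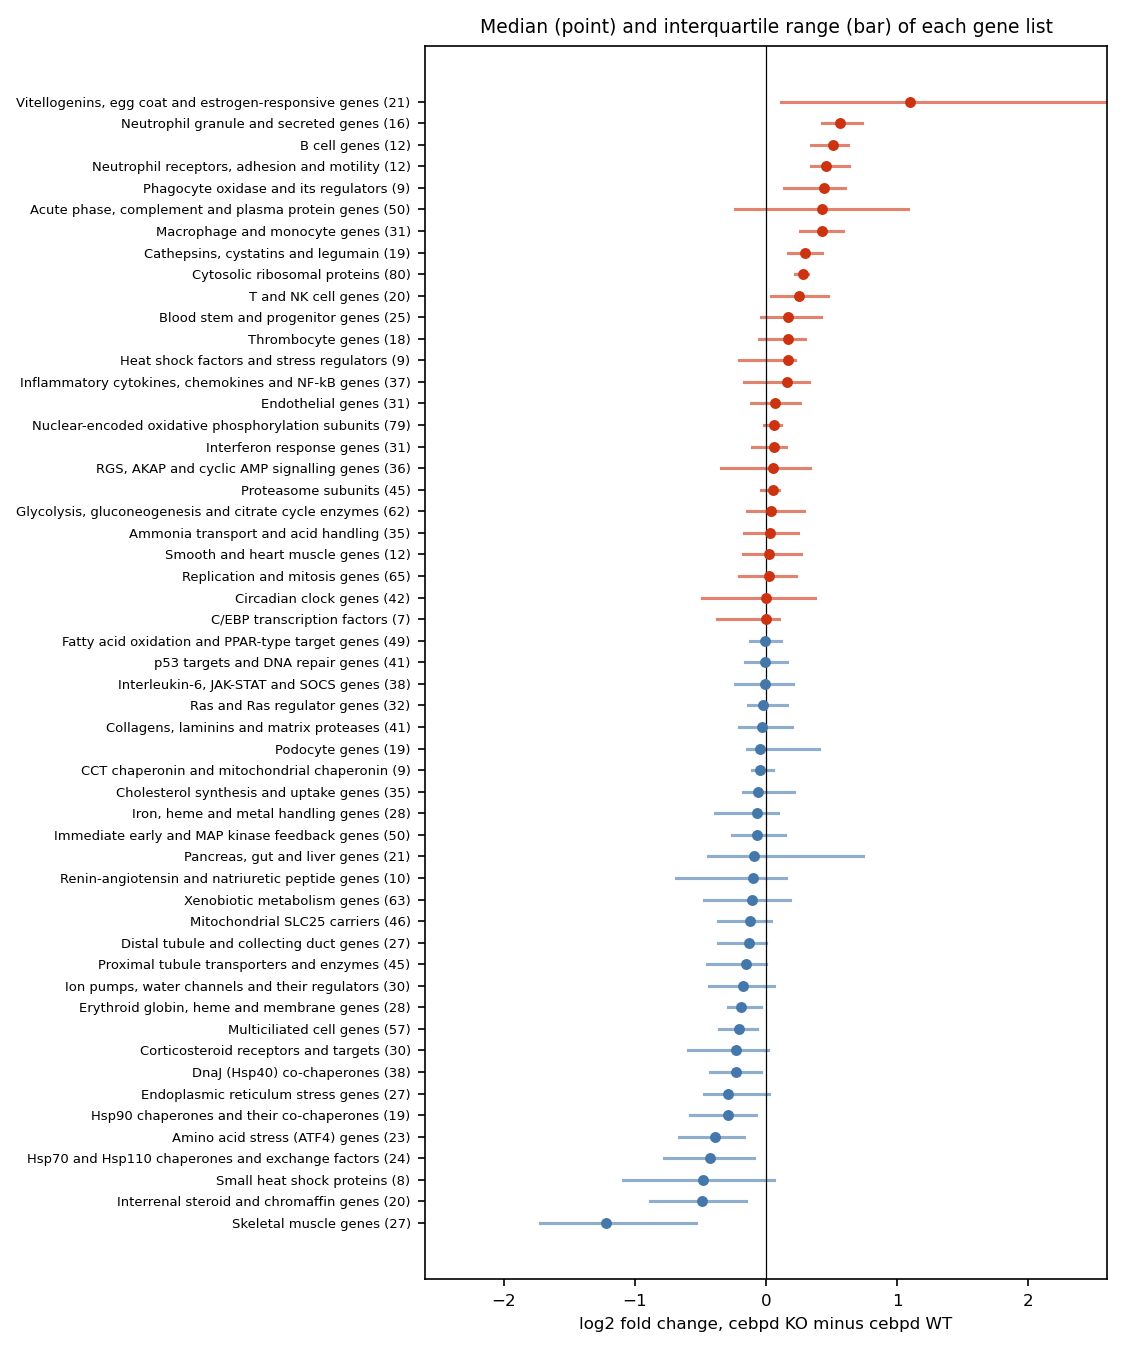
Median (point) and interquartile range of the members (bar) of the log2 fold change in cebpd KO against cebpd WT for each of 53 gene lists, with the number of tested members in brackets and 1 bar running past the axis. The Hsp70 list lies at -0.43 and the neutrophil granule list at 0.56, and the lists with the lowest and the highest median, skeletal muscle and egg genes, rest on single libraries.

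The chromosome of cebpd held the highest share of genes with a low p. In the newer RefSeq gene table cebpd lies on chromosome 24, and 68 of its 316 tested genes (21.5%) had an unadjusted p under 0.05, against 13.4% of all genes and at most 15.8% on the other 24 chromosomes. The share stayed the highest of the 25 when each library was left out in turn, a check added after seeing the data, and when the 6 cebpd libraries were fitted alone, at 15.8 to 27.5%. At an adjusted p under 0.1 the chromosome had 12 genes (3.8%), 2 of which, cebpd and zgc:56530, passed the test. In the CEN comparison it was also the highest, with 62 genes at an unadjusted p under 0.05 (19.6%) against 9.86% of all genes and 7.27 to 13.4% on the others.

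These genes were not gathered right at cebpd, but they were not even along the chromosome. Of the 20 tested genes within 10 places of cebpd in gene order 4 (20%) had an unadjusted p under 0.05, and of the 100 within 50 places 23 (23%). The tested genes of the chromosome ran from place -250 to place 65, counted from cebpd. All 12 genes at an adjusted p under 0.1 lay from place -148 to place 14, and low p-values were sparser toward place -250. The adjacent tested gene mapre2, for a microtubule end-binding protein, was at 39.7, 38 and 33.9 CPM in the wild types and 58, 64.1 and 52.5 CPM in the knockouts. It had no overlap, at 0.65 ± 0.13 (SE, adjusted p = 0.0738). CEN WT, at 49.9, 52.2 and 41.9 CPM for mapre2, was also above every cebpd wild type. On the other side the nearest genes were mcm4 (-0.31), ube2v2 (-0.01), snai2 (-0.08), pcmtd1 (0.68) and atg9b (0.64), and beyond mapre2 came dtna (0.68), abcd4 (0.01), tmem14cb (-0.12) and pak1ip1 (-0.33), given as log2 differences, none of which passed. zgc:56530 lay 122 tested genes from cebpd and ropn1l 98. The neutrophil granule gene lyz, described above, also lies on this chromosome, at place -82. Next to ropn1l lay si:rp71-1f1.4, chosen after its values were seen, at 175, 151 and 199 CPM in the wild types and 0.865, 3.17 and 16.5 CPM in the knockouts. The groups were far apart at -4.69 ± 0.80 (SE), but the 3 knockouts differed widely among themselves and the adjusted p was 0.0535. CEN WT lay between these groups, at 36.6, 33.8 and 69.7 CPM. Genotypes at these genes were not analysed here.

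**Figure D5:**
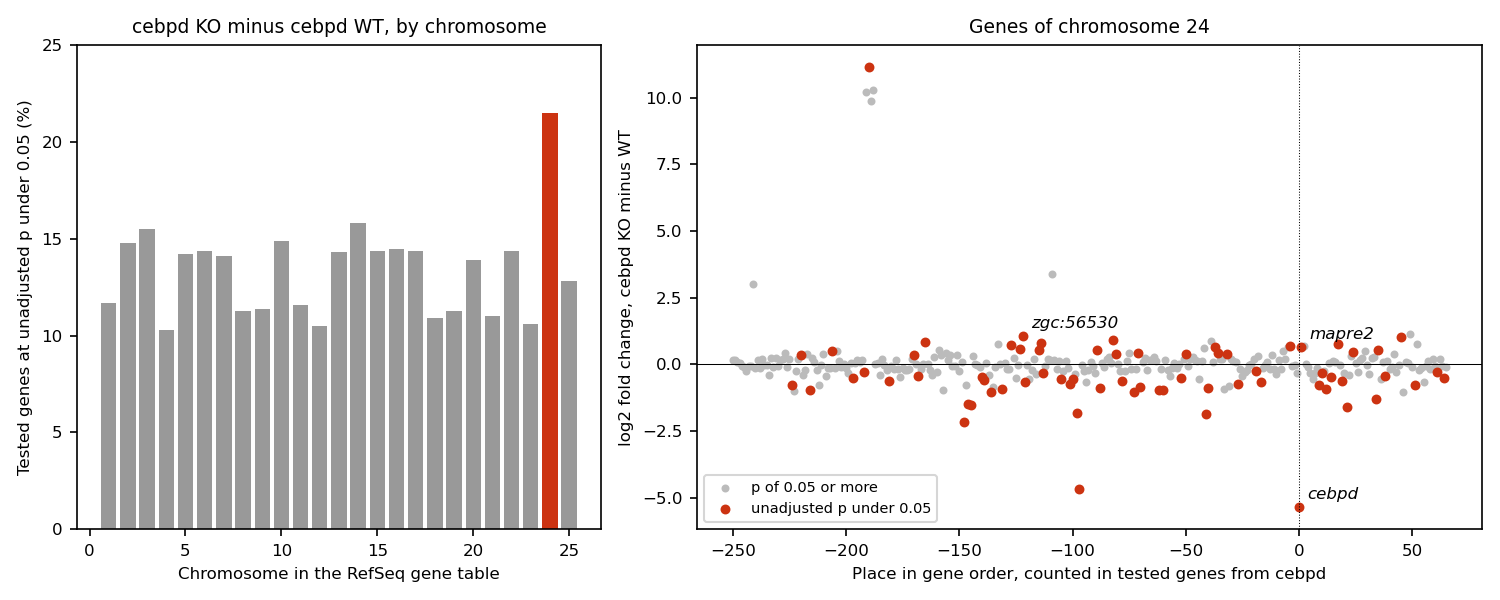
Left, share of tested genes at an unadjusted p under 0.05 in the cebpd comparison for each of 25 chromosomes (bars from 0, in %), with chromosome 24 in red at 21.5%. Right, log2 fold change of the tested genes of chromosome 24 by their place in gene order from cebpd, with genes under an unadjusted p of 0.05 in red. The red genes lie on both sides of cebpd and are sparser toward the left end.

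The knockout effects of the 2 experiments differed by the test of the difference in 5 genes (0.0422%). For cebpd the fall was deeper in the cebpd knockouts than in the CEN knockouts, which kept 67.8, 72.7 and 77.8 CPM against 294, 333 and 212 CPM in their wild types. akap2 was lower in the cebpd knockouts and higher in the CEN knockouts than in the wild types of each, a log2 difference of effects of -2.18 with an adjusted p of 0.017. ggt1a went the same way, with 130, 148 and 198 CPM in CEN KO against 73.3, 75.5 and 44.4 CPM in CEN WT and a difference of -2.32 (adjusted p = 0.0244). desi1a was at 53.8, 58.1 and 43.6 CPM in the cebpd wild types and 30.5, 31.1 and 34.9 CPM in their knockouts, and at 17.2, 19.3 and 22.6 CPM in CEN WT and 35.8, 44.9 and 46.4 CPM in CEN KO. Its groups were apart in both experiments and in opposite directions, a difference of -1.79 (adjusted p = 0.0213). rbbp8, for a protein of DNA end resection, lies 6 tested genes from cebpd on chromosome 24. It overlapped between cebpd WT, at 7.53, 5.51 and 8.83 CPM, and cebpd KO, at 6.18, 3.87 and 4.71 CPM. CEN KO was at or under 0.388 CPM, and the difference of effects was 4.54 (adjusted p = 0.0244). The count of 5 fell to 0 when the 2nd cebpd wild type, the 1st cebpd knockout, the 1st or 2nd CEN wild type or the 3rd CEN knockout was left out. It was 2 without the 1st cebpd wild type or the 2nd cebpd knockout and 3 without the 3rd cebpd wild type. Without the 3rd cebpd knockout it was 48, without the 3rd CEN wild type 10 and without the 2nd CEN knockout 12.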

How the data were processed

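RNA sequencing measured transcripts in 12 whole-kidney libraries, 3 in each of 4 groups taken from the labels. What the authors deposited was 1 table of raw counts a library, with 14781 gene symbols and 5 summary lines and not normalized. TopHat2 2.1.1, HTSeq 1.6.1, Trim Galore 0.6.4 and the genome build danRer10 are named in the submitters' processing notes, while annotation and strandedness were not given in the sources used here. Overlapping sense and antisense genes therefore cannot be separated, and close paralogs may have split or lost reads. Neither library sizes nor tests include the summary lines (32.1 to 38.5% of a file's reads lay in no gene, 1.32 to 3.99% in more than 1).

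The analysis used edgeR 4.0.16 under R 4.3.3. The filter filterByExpr, set to a minimum of 10 counts, passed 11840 genes, and libraries were scaled by TMM. edgeR's quasi-likelihood test was fitted over all 12 libraries with 1 term per group (8 residual degrees of freedom, biological coefficient of variation 25.3%), with Benjamini-Hochberg adjusted p over all genes tested and a threshold of 0.05. SE values are the absolute log2 fold change divided by the root of F. The floor of 3 counts covers counting error only. The test was tested on simulated data before use. Alternatives used DESeq2 1.42.0 and limma 3.58.1.

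The comparison, the gene lists and the rule for named genes were chosen with earlier results of these data known. The rule took all called genes, then, at an adjusted p from 0.05 to 0.1, without overlap and with a group mean of 1 CPM or more, the 14 of largest increase and the 14 of largest decrease with a gene name. It also took the called members of each list or else its 2 members of lowest p (4 for the 8 lists of largest median), all C/EBP genes, the 5 nearest tested genes on each side of cebpd and the genes called for the difference of effects. A RefSeq table of assembly GRCz12tu held 12660 of the symbols directly and 1832 as synonyms, leaving 289 unmatched, and was used for names, chromosomes and gene order only. Promoter and protein sequences were planned and are not analysed here.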

Additional observations from a re-analysis of the deposited data

Results flagged for a closer look

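The test of the difference between the knockout effects of the 2 experiments singled out 5 genes, whose levels are given above. The log2 difference, the cebpd effect minus the CEN effect, was -2.18 for akap2, -1.79 for desi1a, -3.42 for cebpd and -2.32 for ggt1a, and 4.54 for rbbp8. For rbbp8 the difference comes with its loss in the CEN knockouts.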

How the results depend on the processing

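The cebpd transcript passed in every alternative, with a log2 fold change of -5.68 to -5.01 when 1 library was left out and an adjusted p of at most 0.0172. The count of 10 genes was 57 with a filter of 10 CPM in 3 libraries, 410 with the DESeq2 Wald test, 133 at a threshold of 0.1 and 1 when the 6 cebpd libraries were fitted alone. It ran from 1 to 233 when 1 library was left out, and was 8 with DESeq2 size factors, 10 with no filter, 10 with limma-voom and 14 with robust estimation. The share of calls that were lower, 80% here, was 47.4% with the stricter filter, 51% with DESeq2 and 43.8% without cebpd KO replicate 3. The count of 5 for the difference of effects was 344 with DESeq2, 8 with limma-voom, 8 at a threshold of 0.1 and 0 to 48 when 1 library was left out. Deviations of same-numbered cebpd wild-type and knockout libraries correlated at 0.30, -0.01 and 0.37, and those of differently numbered ones at -0.44 to 0.33. These ranges overlap and do not settle whether the numbers mark pairs. The main fit did not pair libraries by number. With the replicate block, the replicate number added over all 4 groups, 6 genes passed in the cebpd comparison, 4 of them among the 10, and 0 for the difference of effects. With the replicate block within each experiment, added after seeing the data, 197 and 129 passed, and all 10 were among the 197. Signs turned only in genes with differences near 0 or large errors, over ranges of -0.16 to 0.35 for cebpb, -0.21 to 0.31 for cebp1, -0.20 to 0.32 for cebpa, -0.17 to 2.09 for atg9b, -0.32 to 0.09 for snai2, -0.08 to 0.06 for ube2v2, -0.06 to 0.07 for abcd4 and -0.30 to 0.08 for tmem14cb when 1 library was left out. With no filter cebpa was at -0.00, and ube2v2 was at 0.00 with the stricter filter and 0.02 with the 6 libraries alone. The cause of these changes was not tested. Depth limited the lowest genes: in cebpd KO, rgs8 rested on 4 to 10 reads a library, cryba1a on 5 to 10 and ccdc85a on 6 to 10. zp2l1 had 3 and 1 reads in the 2nd and 3rd cebpd KO libraries.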
